A study of Mus musculus with 15 samples.

Results

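The cytosolic ribosomal proteins are the proteins that, together with ribosomal RNA, build the small and the large subunit of the ribosome. They were taken here as the protein-coding genes of the GENCODE mouse annotation whose symbol starts with Rpl or Rps followed by a digit, with Rplp0, Rplp1, Rplp2 and Rpsa added and the Rps6k kinases and pseudogene symbols left out. The rule gave 86 genes of 55536 in the count table. Of these, 49 encode proteins of the large subunit or their paralogs, 3 encode the stalk proteins of the large subunit, and 33 encode proteins of the small subunit or their paralogs. The remaining gene, Rps19bp1, matched the rule by its letters but encodes a protein that binds Rps19 and is not itself a ribosomal protein. The rule reads symbols and no measured value, but the set was chosen with earlier results of these data known.

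CD8+ T cells of OT-I mice, whose transgenic T cell receptor recognises the SIINFEKL peptide of ovalbumin, were transferred into wild-type C57BL/6J recipients. The study's methods describe the OT-I donors as Rag1-/- or Rag2-/- on a C57BL/6J background, so the donors carried no other receptor specificity. In the Ag group recipients were given the peptide with rat IgG, and in the Ag+Costim group they were given the peptide with agonist antibodies against CD134 (OX40) and CD137 (4-1BB), both costimulatory receptors. The labels give day 4 for the collection of spleen and lymph node cells, the study's methods a slightly shorter time, and donor CD8+ T cells were then sorted. There were 5 libraries in each of these groups, and the 5 Naive OT-I samples that the labels also list were not analysed here. The question of the study was how costimulation rewires the RNA of activated CD8+ T cells beyond the antigen alone.

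Ribosomal protein mRNAs are among the most abundant messages of a growing cell, and their products are needed in equal amounts, since each ribosome holds nearly the same set. Most carry a 5′ terminal oligopyrimidine (TOP) tract, a C at the first base followed by an unbroken run of pyrimidines, through which mTORC1 and the RNA-binding protein Larp1 control their translation. Activated CD8+ T cells are known to raise ribosome production as they grow and divide. Much of that control acts on translation, which poly(A) RNA does not measure.

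Annotated starts with a TOP run are shown first, because the TOP tract is the sequence feature for which these mRNAs are known. All starts printed here have such a run, while the main transcripts of other members described later, such as Rps18, Rpl13a, Rpl18, Rpl5, Rpl7l1, Rps27l and Rps19, have none at their annotated start. The first 20 bases of the most abundant coding transcript are printed (for Rps27, whose main transcript is annotated from a base without such a run, the start in the RefSeq promoter table) 5′ to 3′, with the opening pyrimidine run in capitals.
Rps27: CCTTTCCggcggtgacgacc
Rps27rt-201: CTTTCCggcggtgacgacct
Rpl37a-201: CTCTTCggacttgggcttgg
Rpl32-201: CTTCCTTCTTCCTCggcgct
Rps2-201: CTTCTTCTTCTTCgggagaa
Rps24-210: CTCTTTTCCTCCTCTCCagc

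The runs of these transcripts were between 6 bases (Rps27rt and Rpl37a) and 17 bases (Rps24) long. A TOP start, counted as a C followed by at least 4 pyrimidines, opened the most abundant coding transcript of 12 of 83 members with a mean of at least 10 CPM (counts scaled to library size), which is 14.5%. The same was true of 183 of 8071 other coding genes at that level, or 2.27%. When any annotated coding transcript of the gene could count, the shares were 23 of 83 (27.7%) and 473 of 8071 (5.86%). In the RefSeq promoter table, build GRCm38.p6, 66 of the 86 members were found with 78 promoters, of which 14 (17.9%) had a TOP start, against 823 of 32851 promoters (2.51%) in all. Annotated starts can lie several bases from the start used in these cells, and a missing run says only that these letters are not at the annotated base.

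The letters CCGGAAG, the core that ETS family factors bind, stood on either strand within 27 of the 78 member promoters (34.6%) and within 2910 of all 32851 (8.86%). The letters AAGATGGC, a core of the YY1 motif, stood in 8 (10.3%) and 903 (2.75%). The motifs can overlap at AAG, and a match is a description and not a binding site. The member promoters that held both the ETS letters in the 100 bases before the start and a TOP start belonged to Rpl15, Rpl38, Rps6, Rps10, Rps18 and Rps21. Those of Rps6 and Rps18, which return in the results, and of Rpl15, with the longest run among them, are printed below. Each window runs from 100 bases before to 20 bases after the start, read 5′ to 3′ on the gene's strand, with the ETS letters and the TOP run in capitals.
Rps6, chr4:86857348-86857467, minus strand: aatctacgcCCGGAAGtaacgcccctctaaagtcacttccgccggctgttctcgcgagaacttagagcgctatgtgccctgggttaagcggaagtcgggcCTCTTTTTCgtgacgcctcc
Rps18, chr17:33955646-33955765, minus strand: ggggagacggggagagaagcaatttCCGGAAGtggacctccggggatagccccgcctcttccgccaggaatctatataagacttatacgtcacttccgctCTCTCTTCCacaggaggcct
Rpl15, chr14:18270967-18271086, minus strand: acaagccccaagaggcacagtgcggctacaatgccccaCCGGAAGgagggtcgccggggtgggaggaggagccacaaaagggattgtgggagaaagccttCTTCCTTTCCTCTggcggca

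The genes were spread over 19 chromosomes, with 14 on chromosome 7. Small nucleolar RNAs, which guide the modification of ribosomal RNA, lay inside 30 members on the same strand, 58 of them in all. Among genes at 10 CPM or more, 30 of 83 members (36.1%) held at least 1 such RNA, against 137 of 8071 other coding genes (1.70%). The members were also among the more abundant messages, with a median level of 412 CPM against 51.1 CPM for those other coding genes.

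The deposited values are counts estimated from read coverage, and their totals ranged from 59598556 (Ag 3) to 449401065 in Ag and from 332290834 to 639070261 in Ag+Costim. All 6 markers of CD8 T cells listed for the check of the label were present, with sums of 3122 to 6140 CPM in Ag and 4132 to 5039 CPM in Ag+Costim, while 3 CD4 T cell markers summed to 1.21 to 16.3 CPM and 2.43 to 5.77 CPM. The 8 myeloid markers summed to 109 to 271 CPM in Ag and 187 to 276 CPM in Ag+Costim. The 6 B cell markers summed to 17.9 to 308 CPM in Ag and 14.7 to 34.1 CPM in Ag+Costim. The 6 erythroid markers summed to 14.7 to 1103 CPM in Ag and 3.80 to 39.8 CPM in Ag+Costim. Both sums were highest in Ag 3, and each B cell marker was higher in Ag 1, Ag 3 and Ag 4 than in every other library. The 8 proliferation markers summed to 670 CPM in Ag 1 and 693 CPM in Ag 4, and to between 3331 and 6762 CPM in the other 8 libraries. Ag 1, Ag 3 and Ag 4 therefore stood apart from the rest. Many results below are also given without Ag 1 and Ag 4 together, and some without Ag 3 alone. No fit left out all 3. In sorted bulk cells, fewer cells of a state and less RNA per cell cannot be told apart.

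Ribosomal protein genes took a larger share of all counts in most Ag libraries than in Ag+Costim libraries, and the share varied less among Ag+Costim libraries. In Ag the members held 5.12%, 4.72%, 3.47%, 4.47% and 5.57% of all gene counts in libraries 1 to 5. In Ag+Costim they held 3.96%, 3.91%, 3.88%, 4.13% and 3.82%. Of the 5 Ag libraries, 4 lay above every Ag+Costim library, and Ag 3, the library with the highest B cell and erythroid marker sums, lay below all of them. The group values were 4.67% ± 0.789 (SD, n = 5) in Ag and 3.94% ± 0.118 (SD, n = 5) in Ag+Costim, a difference of -0.73 percentage points that was smaller than the Ag spread. Without Ag 3 the difference was -1.03 points. The part that the markers of other cells or the proliferation markers have in this share was not tested.

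**Figure D1:**
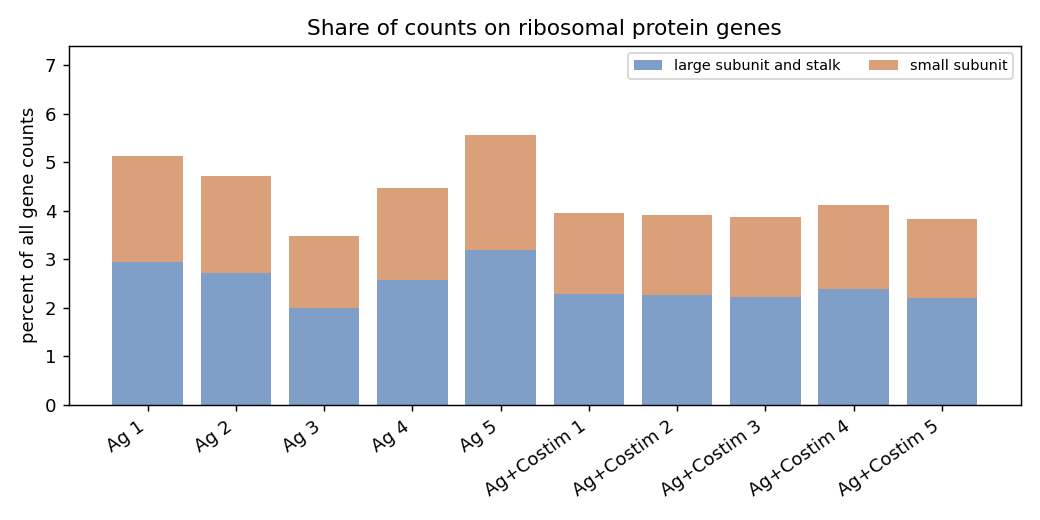
Share of all gene counts on ribosomal protein genes, in percent (y axis, from 0), for each of the 10 libraries (x axis), stacked as large subunit with stalk and small subunit (Rps19bp1 is not drawn). The 5 Ag+Costim bars end between 3.82% and 4.13%, while the Ag bars range from 3.47% in Ag 3 to 5.57% in Ag 5.

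The balance between the subunits differed little. The counts on small subunit genes were 0.743 ± 0.00386 (SD, n = 5) of those on large subunit and stalk genes in Ag and 0.734 ± 0.00440 (SD, n = 5) in Ag+Costim. Annotated pseudogenes whose symbol is a ribosomal protein symbol with -ps, 294 in the table, added counts equal to 3.498% to 4.12% of the members' counts in Ag and 3.59% to 3.68% in Ag+Costim. Pseudogenes under other symbols were not counted. Reads from near-identical copies can be split between a gene and its pseudogenes. This share does not measure how many reads were split in that way.

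Per transcript length, Rpl41, Rpl32 and Rpl13 had the highest levels of the members. Rpl41, the shortest of the ribosomal proteins, was at 3263 ± 633 (SD, n = 5) TPM, the estimated counts per annotated transcript length scaled to one total in every library, in Ag and 2873 ± 34.2 in Ag+Costim. Rpl32, a protein of the large subunit, was at 3289 ± 737 in Ag and 2505 ± 78.5 in Ag+Costim, and Rpl13 at 3242 ± 723 and 2492 ± 60.7. In Ag their levels differed by less than their spread, and in Ag+Costim Rpl41 was above the other two, which differed from each other by less than their spread. The lowest at 10 CPM or more were Rps19bp1 at 45.5, Rpl7l1 at 97.3 and Rps27rt at 152 TPM as means over the 10 libraries. Rpl3l, Rpl39l and Rpl10l, paralogs known from muscle or testis, had mean levels of 0.14, 0.74 and 0.090 CPM and were the only members under 10 CPM. Rpl10l was too low to be tested, so 85 of the 86 members entered the test.

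Within each library the members moved largely as one block on the scaled CPM used here. In Ag 2 and Ag 5 all 83 members at 10 CPM or more lay above their mean over the 10 libraries, with medians 0.30 and 0.68 higher on the log2 scale, and in Ag 3 none did, with a median of -0.55. The spread of the members around that shift was small in these libraries, with SDs of 0.091, 0.10 and 0.072 on the log2 scale. Ag+Costim libraries had medians between -0.03 and 0.13 and SDs between 0.076 and 0.17. Ag 1 and Ag 4 differed from this pattern, because their members spread out with SDs of 0.38 and 0.32 around medians of -0.22 and -0.29.

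The members that stood apart in Ag 1 also did so in Ag 4. Relative to each library's own median, the deviations of the 83 members in Ag 1 and Ag 4 had a correlation of 0.96 across genes (Pearson), and 75 of the 83 had the same sign in both. Both libraries had low proliferation markers and raised B cell markers, both were set against the same 10-library means, and genes are not independent replicates, so this is a description. Rps27 was 0.96 and 1.02 above the library median (log2), and Rps27rt 1.11 and 0.86. On the low side, Rps27l had -1.23 and -1.12 and Rpl7l1 had -0.90 and -0.59. These 4 were named here after their values were seen.

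**Figure D2:**
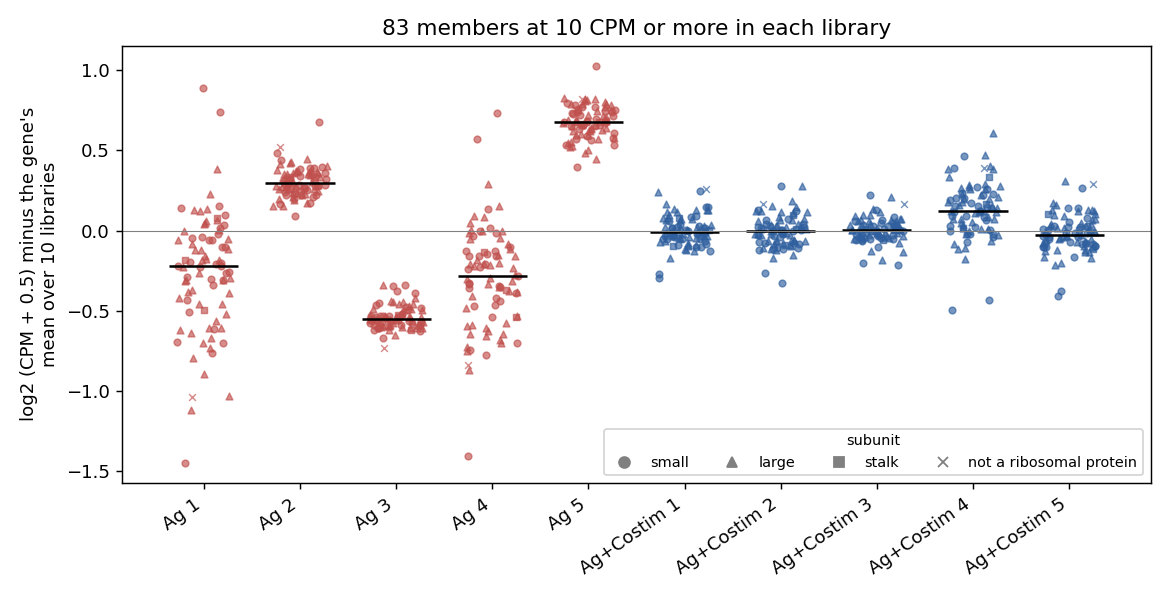
Level of each of the 83 members at 10 CPM or more in each library (x axis), as log2 of CPM plus 0.5 minus the gene's mean over the 10 libraries (y axis); symbols mark the subunit, red points are Ag, blue points Ag+Costim, and black lines are medians. The points of Ag 2, Ag 3 and Ag 5 form tight groups at 0.30, -0.55 and 0.68, while those of Ag 1 and Ag 4 span 2.34 and 2.14 log2 units.

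The comparison of Ag+Costim with Ag asked whether costimulation changed the mRNA of single ribosomal proteins. No member passed the test in edgeR (quasi-likelihood, Benjamini-Hochberg (BH) adjusted over 24262 genes, threshold 0.05), and neither did any other gene, so percent called was 0. In simulated counts with the spread fitted to these data, this test recovered 10% of log2 changes of 1 and 35% of log2 changes of 2. The simulation gave both groups the same spread and drew each gene independently, unlike these libraries. The rates are therefore a rough guide and not the power for these members. A gene without a call may therefore still differ. At an unadjusted p under 0.05, 2 members were counted, Rps27 and Rps27rt, both lower after costimulation, against 18.6% of all genes tested. This count moved with the scaling, to 5 members with DESeq2 size factors (19.8% of all genes), 20 with the upper quartile (21%) and 34 with total counts (22.5%), all lower. The members' median log2 fold change was -0.04, with 36 above and 49 below 0, and 75 of the 85 lay within 0.25 of 0. The median over the 8626 genes with at least 10 CPM was 0.24, and 41.5% of them lay within 0.25, while the median over all 24262 genes was -0.32. The members' median was thus below that of genes of at least 10 CPM and above that of all genes tested. With total counts the members' median was -0.25 and that of genes with at least 10 CPM was 0.0004. Without Ag 1 and Ag 4 the members' median was -0.22, with 3 of 85 above 0, beside 0.15. The sign also turned on single libraries. Without Ag 3 alone the members' median was -0.16, with 18 above 0, beside 0.19. Without Ag 2 alone it was 0.05, with 52 above 0, beside 0.32. Without Ag 5 alone it was 0.19, with 67 above 0, beside 0.36.

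**Figure D3:**
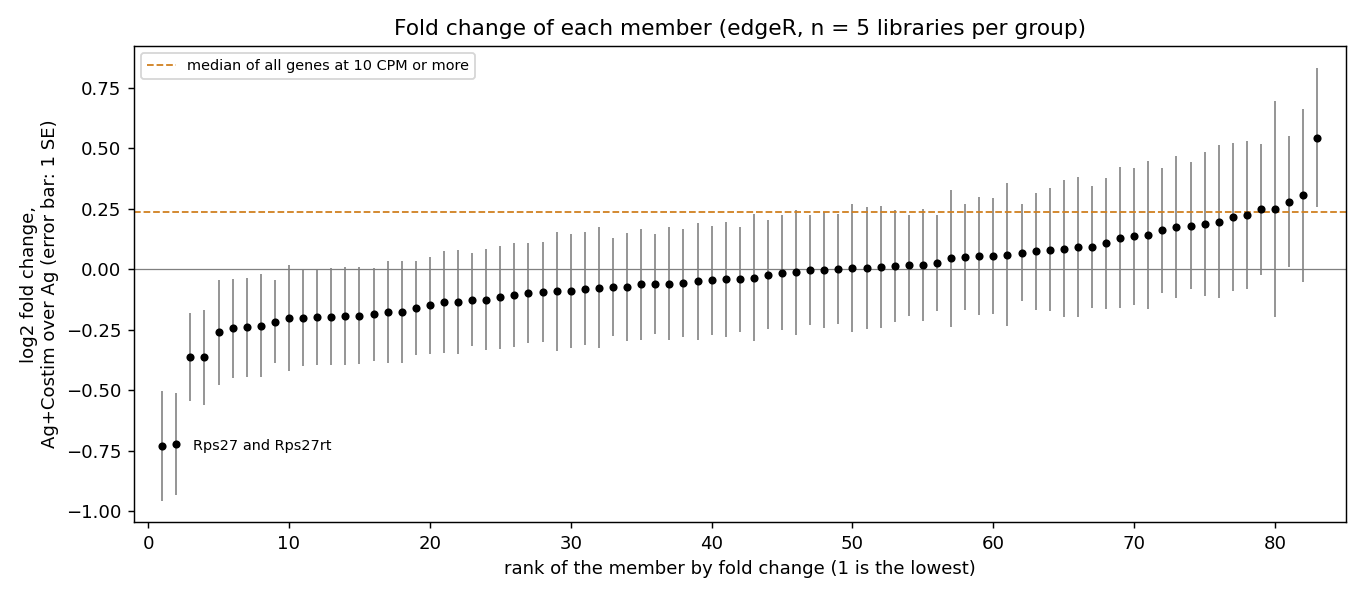
Log2 fold change of each member at 10 CPM or more, Ag+Costim over Ag, with 1 standard error from edgeR (y axis), against the member's rank from lowest to highest (x axis). Most points lie between -0.25 and 0.25, below the dashed line at 0.24 that marks the median of all genes at 10 CPM or more, and Rps27 and Rps27rt lie lowest at -0.73 and -0.72.

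The spread between libraries was larger in Ag than in Ag+Costim for all 85 tested members. The median SD of the log2 level was 0.51 in Ag and 0.070 in Ag+Costim for the members at 10 CPM or more, against 0.46 and 0.12 for all 8626 genes at that level. Beside the edgeR result, DESeq2 called 4 members, among them Rps27, Rps27rt and Rpl37a, all lower in Ag+Costim, where 22.3% of genes with an adjusted p were called. A limma fit that gives each library a quality weight called 52 members, 48 of them higher, where 52.1% of all genes were called. Among genes at 10 CPM or more, the nearer background, the weighted fit called 51 of 83 members and 6047 of 8626 genes, and DESeq2 called 4 and 1115. The sign of the members' median was opposite in these fits, -0.15 in DESeq2 and 0.27 in the weighted fit, so no direction is given for the set.

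No member had every library of one group above every library of the other on the TMM-scaled CPM scale, where 5.6% of the 24262 genes tested did. Without Ag 3 this count was 13 members, all lower in Ag+Costim, including Rps27, Rps27rt, Rpl37a, Rpl32, Rpl13 and Rpl36, where 7.65% of genes did so in either direction. Lower in this way were 2.18% of all genes tested and 201 of the 8626 genes at 10 CPM or more. Leaving out Ag 1 and Ag 4 together gave 0 members by this count, where 9.45% of all genes tested had no overlap. The edgeR test then called 0 members and 0% of all genes.

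Among the small subunit proteins, Rps27, a zinc finger protein of the small subunit's solvent side, was the lowest in Ag+Costim relative to Ag. In Ag it was at 561, 357, 240, 558 and 501 CPM, and in Ag+Costim at 278, 267, 290, 248.8 and 253 CPM. Ag 1, Ag 2, Ag 4 and Ag 5 lay above every Ag+Costim library, and Ag 3 lay just below them all. The log2 fold change was -0.73 with a standard error of 0.23, an unadjusted p of 0.00847 and an adjusted p of 0.222 in edgeR. With DESeq2 the adjusted p was 0.0100, and with Ag 1 and Ag 4 left out the edgeR fold change was -0.44 with an adjusted p of 0.383. With Ag 3 alone left out the edgeR fold change was -0.88 with an adjusted p of 0.130. Rps27 lies at chr3:90212522-90213651 (mm10, minus strand).

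Rpsa, the laminin receptor protein of the small subunit, was at 1272, 1616, 872, 1277 and 1872 CPM in Ag libraries and at 1194 to 1294 CPM in Ag+Costim libraries. Its log2 fold change was -0.15 ± 0.20 (SE), adjusted p 0.642 in edgeR. Rps6, the small subunit protein that S6 kinase phosphorylates downstream of mTORC1, had 713, 1022, 567, 693 and 1249 CPM in the Ag libraries and 790 to 890 CPM after costimulation. Its log2 fold change was -0.04 ± 0.22 (SE), adjusted p 0.913 in edgeR. In both genes some Ag libraries were above and others below the Ag+Costim range, and both fold changes were above 0 when no low counts were filtered out.

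In the large subunit Rpl37a and Rpl32 were among the members with the lowest fold changes. Rpl37a was at 630, 694, 390, 598 and 772 CPM in Ag and at 467 to 497 CPM in Ag+Costim, with a log2 fold change of -0.36 ± 0.18 (SE) and an adjusted p of 0.285 in edgeR. For Rpl37a 4 Ag libraries lay above all Ag+Costim libraries and Ag 3 lay below them. Rpl32 had -0.26 ± 0.22 (SE), adjusted p 0.457 in edgeR.

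Among members at 10 CPM or more the highest fold changes were those of Rpl7l1, Rps19bp1, Rpl5, Rps27l and Rpl6, at 0.54, 0.31, 0.28, 0.25 and 0.25 on the log2 scale, none of which passed the test. Rpl7l1, a paralog of Rpl7 that acts in the assembly of the large subunit, was at 69.2, 174, 119, 82.4 and 212 CPM in Ag and at 175 to 231 CPM in Ag+Costim. Its standard error was 0.29 and its adjusted p 0.298 in edgeR. Rpl5, which with Rpl11 and the small ribosomal RNA of the large subunit forms a particle that can hold back Mdm2, the p53 ligase, was at 349, 686, 370, 331 and 800 CPM in Ag and at 560 to 745 CPM in Ag+Costim. Rpl11 was at 270 to 644 CPM in Ag and 398 to 447 CPM in Ag+Costim, with a log2 fold change of 0.01 ± 0.23 (SE). Its sign turned with the scaling, to -0.10 with DESeq2 size factors and to -0.19 with total counts.

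In Rpl7l1, Rps19bp1, Rpl5, Rps27l and Rpl6 the libraries Ag 1 and Ag 4, with low proliferation markers, gave the lowest values. Ag 3 also lay below every Ag+Costim library in these genes. In Rpl5, Rpl6 and Rps19bp1 Ag 3 was close to Ag 1 and Ag 4, at 370, 391 and 13.5 CPM. For Rpl11 Ag 3 was the lowest library. With Ag 1 and Ag 4 left out together, the log2 fold changes of Rps19bp1, Rps27l and Rpl6 turned to -0.08, -0.26 and -0.04. That of Rpl7l1 was then 0.20 and that of Rpl5 was 0.0012. The part of cell proliferation in these values was not tested.

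The stalk of the large subunit, on which the elongation factors act, is made of Rplp0, Rplp1 and Rplp2. Rplp0 was at 1298 to 3024 CPM in Ag and 1901 to 2378 CPM in Ag+Costim, with a log2 fold change of 0.16 ± 0.26 (SE). Rplp1 had -0.20 ± 0.22 and Rplp2 0.00 ± 0.23. Their adjusted p values were 0.702, 0.565 and 0.996 in edgeR, and Rplp0 and Rplp2 were below 0 with total counts.

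Several members have a paralog that can take the same place in the ribosome, and the levels within such pairs are given next. Rps27 has 2 copies in the set, Rps27l and Rps27rt. The coding sequence of Rps27rt, an intronless copy, was identical to that of Rps27 over all 252 bases, and that of Rps27l matched it at 192 of 252 bases (76.2%). The first 120 coding bases of Rps27 and Rps27l from the annotated transcripts are given below because reads can be told apart only where they differ. Capitals mark the 28 bases of Rps27l that differ, and Rps27rt has the letters of Rps27.
Rps27-201: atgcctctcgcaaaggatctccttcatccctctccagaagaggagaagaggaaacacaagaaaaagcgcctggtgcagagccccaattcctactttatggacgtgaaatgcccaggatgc
Rps27l-201: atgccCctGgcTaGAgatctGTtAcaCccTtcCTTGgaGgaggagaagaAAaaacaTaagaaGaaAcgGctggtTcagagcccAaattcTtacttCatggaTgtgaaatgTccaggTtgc

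Because Rps27 and Rps27rt have the same coding letters, their counts are uncertain as a split. Rps27rt was at 59.5, 35.9, 24.2, 47.7 and 42.0 CPM in Ag and 22.5 to 27.6 CPM in Ag+Costim, with a log2 fold change of -0.72 ± 0.21 (SE), adjusted p 0.204 in edgeR, and -0.42 without Ag 1 and Ag 4. Rps27l, a target of p53 in other settings, had a positive fold change. It was at 72.8, 320, 158, 75.1 and 408 CPM in Ag and at 233 to 275 CPM in Ag+Costim, and its log2 fold change was 0.25 ± 0.45 (SE), adjusted p 0.733. Per length, Rps27l was at 9.37% of Rps27 in Ag 1 and 9.51% in Ag 4, at 64.7%, 49.1% and 59.3% in Ag 2, Ag 3 and Ag 5, and at 58.8% to 80.9% in Ag+Costim. The ratio of the 2 paralogs therefore set Ag 1 and Ag 4 apart from the other 8 libraries.

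**Figure D4:**
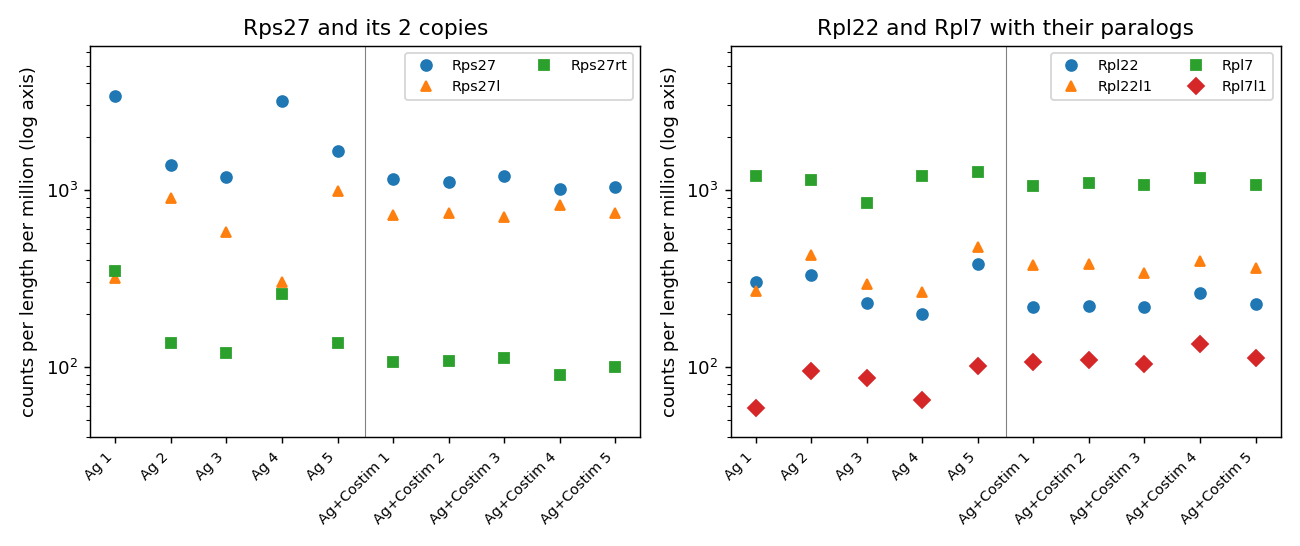
Counts per length (TPM) on a log axis (y axis) in each library (x axis) for Rps27, Rps27l and Rps27rt on the left and for Rpl22, Rpl22l1, Rpl7 and Rpl7l1 on the right; the line divides Ag from Ag+Costim. In Ag 1 and Ag 4 Rps27 is high at 3392 and 3188 while Rps27l is low at 318 and 303.

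Rpl22 and Rpl22l1, which share 71.8% of their aligned coding bases, differed in order between libraries. Per length, Rpl22l1 was above Rpl22 in 9 of 10 libraries, at 371 ± 22.3 against 229 ± 18.7 (SD, n = 5) in Ag+Costim and at 346 ± 98.4 against 289 ± 74.7 in Ag, and it was below Rpl22 in Ag 1, at 270 against 301. Rpl36al was above Rpl36a in both groups, at 833 ± 38.7 against 442 ± 20.4 in Ag+Costim and at 767 ± 186 against 488 ± 91.4 in Ag. Rpl7l1 was far below Rpl7, at 113 ± 12.2 against 1089 ± 42.7 in Ag+Costim and at 81.3 ± 18.6 against 1130 ± 166 in Ag. Rpl3l, Rpl10l and Rpl39l were at or below 2.14 TPM in every library, while Rpl39 was at 446 or more and Rpl3 and Rpl10 at 855 and 909 or more. Rps4x, the X-linked form of the small subunit protein Rps4, was at 928 ± 152 in Ag and 914 ± 61.3 in Ag+Costim. None of these genes passed the edgeR test.

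When each member was expressed as a percent of the members' total, a scaling chosen after seeing the data, the block movement was removed and 15 members had no overlap between the groups. Scaled in the same way, 6.76% of all tested genes had none, but only the members make up their own denominator, so the 2 figures are not alike in kind. Of the 15 members, 5 were higher in Ag+Costim, namely Rpl5, Rpl6, Rpl7l1, Rps2 and Rps4x. The other 10 were lower, namely Rpl13, Rpl18, Rpl19, Rpl23a, Rpl36, Rpl37a, Rps14, Rps19, Rps23 and Rps27. Without Ag 1 and Ag 4 the count was 19 members, 6 higher and 13 lower, where 8.57% of all genes had none. Leaving out libraries can only add to this count.

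The sizes of these shifts were small for most genes and large for a few. Rps2, a small subunit protein at the mRNA entry, held 2.02%, 3.01%, 2.98%, 1.95% and 3.00% of the members' counts in Ag and 3.08% to 3.15% in Ag+Costim. Rpl5 held 0.948%, 1.32%, 1.27%, 0.922% and 1.19% in Ag and 1.32% to 1.6% in Ag+Costim. Rps27 held 1.52%, 0.685%, 0.823%, 1.55% and 0.744% in Ag and 0.535% to 0.682% in Ag+Costim. Rps23, a small subunit protein near the decoding site, held 1.46% to 1.56% in Ag and 1.389% to 1.404% in Ag+Costim. For Rps2 and Rps27, Ag 1 and Ag 4 were far from the Ag+Costim range and the remaining Ag libraries close to it.

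The transcripts of the members were compared next, to see whether costimulation changed which isoform a ribosomal protein gene used. The annotation gives the members 505 transcripts, of which 237 are coding, 26 are marked for nonsense-mediated decay, in which a premature stop leads to degradation, and 177 hold a retained intron. In the test of transcript usage (edgeR diffSpliceDGE, gene-level Simes, BH adjusted over 10441 genes, share change over 0.1), 0 of the 79 members tested were called, where 0.297% of all genes were. At an unadjusted p under 0.05 there were 2 members and 6.42% of all genes, and limma's diffSplice called 1 member, Rps24, where 1.39% of all genes were called. The largest change of a transcript's share was over 10 percentage points in 12 members (15.2%) and in 28.6% of all genes tested.

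The lowest adjusted p belonged to Rps18, at 0.0998. Its main coding transcript, Rps18-201, took 36.04%, 58.6%, 35%, 50.7% and 56.7% of the gene's counts in Ag and 61.8%, 61.9%, 59.3%, 68.3% and 64.5% in Ag+Costim. The groups did not overlap, and the means were 47.4% ± 11.2 and 63.2% ± 3.40 (SD, n = 5). The call depended on single libraries. Rps18 was called when Ag 1 or Ag+Costim 1 was left out, and Rpl13a when any 1 of the 5 Ag libraries or Ag+Costim 2 was left out, where between 0.331% and 0.845% of all genes were called. With Ag 1 and Ag 4 left out together 4 members were called, Rpl10a, Rpl13a, Rpl18 and Rps18, where 1.78% of all genes were. Rpl13a-201 took 60.4% ± 6.91 of its gene in Ag and 74.6% ± 7.43 in Ag+Costim. Other large changes were in Rpl18-201, which took 69.7% ± 7.77 in Ag and 50.8% ± 14.3 in Ag+Costim, and Rps14-201, with 75.1% ± 7.34 and 57.7% ± 11.9 (SD, n = 5 for each).

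Transcripts marked for decay or with a retained intron took 10.01%, 6.03%, 7.22%, 9.22% and 5.80% of the members' counts in Ag and 6.60%, 5.87%, 6.66%, 5.85% and 6.31% in Ag+Costim. The group values were 7.66% ± 1.89 and 6.26% ± 0.387 (SD, n = 5), and the groups overlapped. The difference of -1.396 percentage points was -0.090 with Ag 1 and Ag 4 left out. The decay transcripts alone took 5.40% in Ag 1 and 5.45% in Ag 4, against 2.00% to 3.30% in the other 8 libraries. In all other coding genes the share of decay and retained intron transcripts was also highest in those libraries, with 9.92% in Ag 1, 9.18% in Ag 4 and 3.95% to 6.69% in the others. Of the 83 members at 10 CPM or more, 13 had over 10% of their counts on such transcripts, 45 had under 1% and 18 of those were at 0. A share above 0 needs such a transcript in the annotation. Rplp1, Rpl36, Rps27rt and Rps3a1, all at 0, have only 1 annotated transcript each. Rps27a and Rpl36al were also at 0, although the PSI values below list a retained intron for each.

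The decay transcripts Rps19-205, Rpl12-201 and Rpsa-206, picked after their values were seen, were higher in Ag 1 and Ag 4 than in the other Ag libraries. Rps19-205 took 36.6%, 9.63%, 10.4%, 35.98% and 9.37% of Rps19 counts in Ag and 7.57% to 10.6% in Ag+Costim. Rpl12-201 took 34.0%, 10.3%, 13.6%, 26.5% and 12.4% of Rpl12 in Ag and 10.02% to 14.5% in Ag+Costim. Rpsa-206 took 48.6%, 17.0%, 22.9%, 44.25% and 14.02% of Rpsa in Ag and 18.4%, 12.4%, 42.4%, 6.06% and 15.8% in Ag+Costim, so that Ag+Costim 3 was close to Ag 4. What sets Rps19-205 apart is an exon of 81 bases at chr7:24886107-24886187 (mm10) that no coding transcript of the gene holds. Its first 47 bases are shown to the stop codon that closes the reading frame inside it, in capitals.
Rps19-205: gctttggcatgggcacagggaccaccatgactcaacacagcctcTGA
The stretches particular to Rpsa-206 (73 bases) and Rpl12-201 (121 bases) held no in-frame stop themselves.

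**Figure D5:**
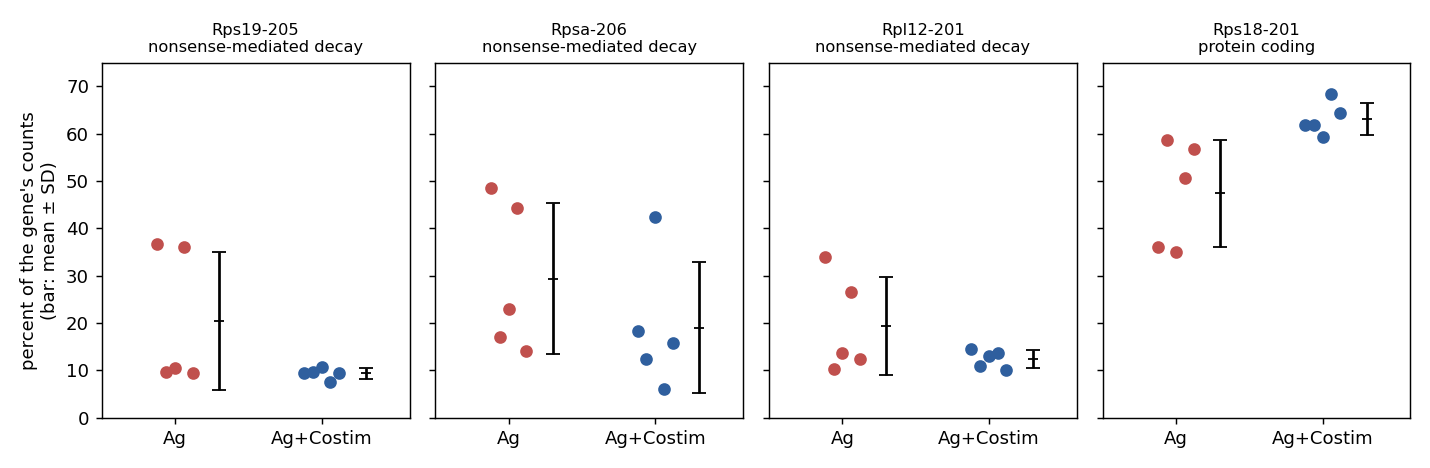
Percent of the gene's counts on 4 transcripts (y axis) in the 5 Ag and 5 Ag+Costim libraries, 1 point per library, with mean and SD beside them. For Rps19-205 the 2 high Ag points are Ag 1 and Ag 4 at 36.6% and 35.98%, and for Rps18-201 all Ag+Costim points lie above all Ag points.

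Rpl10a, Rps13, Rps18 and Rpl14 were among the members with the highest share of decay and retained intron transcripts over all libraries. Rpl10a had 51.4% ± 9.46 in Ag and 52.1% ± 3.52 in Ag+Costim. Rps13 had 34.0% ± 3.23 and 27.0% ± 2.49, Rps18 28.9% ± 10.4 and 23.0% ± 3.18, and Rpl14 22.0% ± 14.2 and 28.1% ± 8.33 (SD, n = 5 for each). The groups overlapped in all 4.

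The second readout of RNA processing is the percent spliced in (PSI) of single exons and introns, a fraction from 0 to 1, with 1 value per group and so no replicate check. Of 284 core exon events in 82 members, 280 (98.6%) had a PSI of at least 0.99 in both groups, against 52.7% of all 108413 core exon events in the table. In Rpl10a, Rps13, Rps18 and Rpl14 every core exon listed was at 0.99 or above in both groups. The 1 retained intron listed for Rps13 was at 0.0033 in Ag libraries and 0.0026 in Ag+Costim libraries, and the retained intron transcript that holds it, Rps13-204, took 0.462% and 0.286% of the gene's counts. Most of the Rps13 share came from the decay transcript Rps13-205, with 26.3% and 22.3%. In Rps19 the upstream start segment at chr7:24884371-24884635 was at 0.0012 in Ag libraries and 0.0005 in Ag+Costim libraries, while Rps19-203, the transcript that begins there, took 53.6% ± 15.6 and 61.4% ± 7.996 of the gene's transcript counts. The extra exon of Rps19-205 was not among the events of the table. For this start of Rps19 the transcript share and the PSI differ, and the cause was not tested.

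Across all event types, 7 of 497 events in 83 members (1.41%) had a PSI difference over 0.1, where 5.87% of all 138940 events did. With genes at 10 CPM or more only, 5 of 493 did (1.01%), against 3.18% of all. Of the 7, a pair are adjoining segments of the 3′ end of Rps3, a small subunit protein that is also an endonuclease. The 412-base segment at chr7:99477904-99478315 had 0.864 in Ag and 0.674 in Ag+Costim, and the 8-base segment beyond it had 0.136 and 0.326. Another pair are such segments in Rpl39l, which was under 10 CPM, with 0.255 and 0.0812 for the one and 0.745 and 0.918 for the other. A retained intron of Rps27a, which encodes a fusion of ubiquitin and a small subunit protein, at chr11:29547746-29547840 had 0.217 in Ag and 0.383 in Ag+Costim. A retained intron of Rpl36al at chr12:69183166-69183664 had 0.479 in Ag and 0.327 in Ag+Costim, and a 13-base tandem 3′ end segment of Rpl35a had 0.732 and 0.852. None of these events overlapped an annotated small nucleolar RNA, but Rps27a and Rpl36al each share exons with another annotated gene.

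In all, 23 members share exonic bases with another annotated gene, most of them on the opposite strand. The library kit does not mark the strand, so reads of such pairs cannot be told apart. Among the genes described, this applies to Rpl5, Rpl10a, Rpl12, Rpl13a, Rpl15, Rpl18, Rpl19, Rpl22l1, Rpl23a, Rpl32, Rpl36al, Rps2, Rps10, Rps18 and Rps27a.

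The genes that work beside the ribosomal proteins were taken from 6 lists. No gene of these lists passed the edgeR test, as for all genes, while DESeq2 called 7 of 20 genes of TOP and mTORC1 control, 6 of 18 chaperones and importins, 4 of 18 genes of ribosomal RNA synthesis and 0 in the other lists, where 22.3% of all genes were called. Of the 8626 genes at 10 CPM or more, DESeq2 called 1115. Among all genes at 10 CPM or more, 23.1% had an unadjusted p under 0.05 in edgeR and 11.3% were higher in every Ag+Costim library than in every Ag library. The 8 proliferation markers, low in Ag 1 and Ag 4, had a median log2 fold change of 0.90, and the part of proliferation in the list values was not tested. All list values without Ag 1 and Ag 4 were added after seeing the data.

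Among ribosomal proteins outside the symbol rule, Fau and Rack1 had log2 fold changes of -0.16 and 0.22, and of -0.27 and -0.04 without Ag 1 and Ag 4. The median of 14 other translation genes with TOP mRNAs was 0.26, with 10 above 0, and 0.053 without those libraries. The largest fold changes among them were 0.80 ± 0.43 (SE) for Hnrnpa1, 0.69 ± 0.35 for Nap1l1 and 0.66 ± 0.28 for Npm1, which were 0.31, 0.26 and 0.36 without Ag 1 and Ag 4. In this list Pabpc1, the poly(A) binding protein, was without overlap between the groups, at 314 to 395 CPM in Ag libraries and 426 to 461 CPM in Ag+Costim libraries.

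The lists for ribosome assembly had medians above that of the ribosomal proteins and that of all genes at 10 CPM or more. The 18 tested chaperones and importins of ribosomal proteins had a median of 0.63, with 16 above 0, 8 (44.4%) at an unadjusted p under 0.05 and 7 (38.9%) without overlap, all of these higher. Without Ag 1 and Ag 4 the median was 0.28, beside 0.15 for all genes at 10 CPM or more. In that fit 7 were at an unadjusted p under 0.05, beside 21.5% of those genes, and 7 were higher without overlap, beside 17.5%. The importins Ipo5 and Ipo9 had 1.01 ± 0.39 and 0.95 ± 0.22 (SE), and Rrp12 had 0.95 ± 0.27, with adjusted p values of 0.256, 0.154 and 0.2003 in edgeR. Their fold changes were 0.55, 0.69 and 0.63 without Ag 1 and Ag 4.

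The 18 genes of ribosomal RNA transcription, modification and export had a median of 0.50, with all 18 above 0, 8 (44.4%) at an unadjusted p under 0.05 and 4 (22.2%) without overlap. Without Ag 1 and Ag 4 the median was 0.28, with 16 above 0, beside a median of 0.15 for all genes at 10 CPM or more. In that fit 4 (22.2%) were at an unadjusted p under 0.05, near the 21.5% of those genes. Higher without overlap were 4 (22.2%), beside 17.5%. With total counts 15 were above 0. Nop58, a core protein of small nucleolar particles, had 1.26 ± 0.26, Ncl, nucleolin, had 0.97 ± 0.28, and Xpo1, the exportin of ribosomal subunits, had 0.78 ± 0.25. These were 0.94, 0.63 and 0.49 without Ag 1 and Ag 4.

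The 20 genes of TOP and mTORC1 control had a median of 0.26, near that of all genes at 10 CPM or more, with 16 above 0, 6 (30%) at an unadjusted p under 0.05 and 5 (25%) without overlap, all of these higher. With total counts the median was 0.0022, and without Ag 1 and Ag 4 it was 0.25. Larp1 was at 27.99, 46.4, 30.9, 28.2 and 49.4 CPM in Ag libraries and at 56.9 to 69.2 CPM in Ag+Costim libraries, a log2 fold change of 0.79 ± 0.19 (SE). Eif4g1, the scaffold of the cap-binding complex, had 0.94 ± 0.19 and Myc 0.72 ± 0.16, and the adjusted p values of the 3 genes were 0.154, 0.141 and 0.149 in edgeR. Without Ag 1 and Ag 4 the fold changes of Larp1, Eif4g1 and Myc were 0.59, 0.74 and 0.60.

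The 14 genes of the 5S particle and the p53 checkpoint, which include the members Rpl5 and Rpl11, had a median of 0.25, with 0 at an unadjusted p under 0.05, and 0.040 without Ag 1 and Ag 4. Among those at 10 CPM or more, Brix1, Rrs1 and Gtf3a had the largest fold changes, 0.57 ± 0.29, 0.42 ± 0.34 and 0.35 ± 0.30, which were 0.23, 0.011 and 0.015 without those libraries.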

How the data were processed

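RNA of sorted CD8+ T cells was sequenced from 5 Ag and 5 Ag+Costim samples. The estimated counts per gene and per transcript were made by the authors with HISAT2 2.1.0 on mm10, SAMtools 1.9 and StringTie 2.1.0, per the submitters' processing notes, and deposited as whole numbers. They derive from coverage, so their totals are not read numbers. The deposited PSI fractions were made by the authors with Whippet, 1 value per group. Columns holding the authors' own comparisons were not used, and tables of sample and lane information were not used either.

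Rows without a gene name (0.0458% to 0.308% of counts) were left out. Genes passing filterByExpr were tested with edgeR 4.0.16 (quasi-likelihood, TMM, robust) in R 4.3.3, Benjamini-Hochberg threshold 0.05, beside DESeq2 1.42.0 and limma 3.58.1 with library weights. CPM are TMM-scaled, and log2 levels used a pseudocount of 0.5. Transcript usage was tested with diffSpliceDGE. TPM were computed from transcript counts and annotated lengths. Scripts were tested on simulated data. With the spread fitted to these data, edgeR recovered 10% of log2 changes of 1 and 35% of log2 changes of 2, with 3 false calls. DESeq2 recovered 27% and 43% with 121 false calls, and the weighted limma fit 11% and 34% with 1 false call. The members and lists were chosen with earlier results of these data known. Genes named were the 5 highest and 5 lowest fold changes at 10 CPM or more, called members, the stalk, Rpl5, Rpl11, Rps6, Rpsa and the paralogs, with like rules for levels, transcripts, events and lists. No pair of libraries was identical (0 found). The labels number the samples without naming animals, so p-values measure the spread between these samples. A few items that the naming rules cover are not reported here.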

Additional observations from a re-analysis of the deposited data

Results flagged for a closer look

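Of 76 groups of 5 libraries examined, 15 held a library far from the other 4 by Dixon's criterion (critical value 0.71), where chance gives about 1 in 20. In 11 of them the library was Ag+Costim 4, which was the highest of its group: Rpl6 was at 731.6 CPM, Rps27l at 275.3, Rpl5 at 744.5, Rpl7l1 at 231.4, Rplp0 at 2378, Rplp2 at 466.2, Rpl11 at 446.8, Rpl7 at 899.9, Rpl10 at 823.3, Rpl39 at 252.4 and Rps4x at 666.4 CPM. These 11 flags come from the same library and are not independent of each other. Among the paralogs near 0, Rpl3l was at 0.9156 CPM in Ag 3 where the other Ag libraries reached 0.1993 CPM, and Rpl39l was at 0.133 CPM in Ag 4 where the others were at 0.6135 CPM or more. The share of Rps18 counts on decay and retained intron transcripts was 46.73% in Ag 1 against 19.39% to 26.49% in the other Ag libraries. That of Rpl14 was 13.72% in Ag+Costim 5 against 29.41% to 35.22% in the others.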

How the results depend on the processing

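The count of members passing the test was 0 with edgeR under every scaling and filter tried and without any 1 library, where 0% of all genes passed. It was 4 with DESeq2 (22.3% of all genes) and 52 with the library-weighted limma fit (52.1%). Members without overlap numbered 0 to 13 when 1 library was left out, where 5.35% to 13% of all genes had none. There were 13 without Ag 3 (7.65% of all genes) and 1, Rpl39l, without Ag 2 (8.78%). The count was 3 when scaled to total counts (4.62% of all genes), 2 to the upper quartile (3.76%) and 1 by the size factors of DESeq2 (4.41%). Scaled to the members' total it was 15 (6.76% of all genes), and 19 (8.57%) with Ag 1 and Ag 4 also left out, both chosen after seeing the data. Usage calls numbered 0 to 2 when 1 library was left out (0.303% to 0.845% of all genes), 1 with limma (1.39%) and 4 without Ag 1 and Ag 4 (1.78%). Events past the threshold were 24 of 497 (4.83%) at a PSI difference of 0.05, against 11.9% of all events, and 0 at 0.2, against 2.67%. Same-numbered samples did not stand out as pairs (correlations of their deviations 0.21, 0.0099, -0.18, -0.41 and 0.054, where any pair gave -0.51 to 0.44). These few correlations cannot exclude shared animals or days. With the replicate block 0 members (0% of all genes) and 0 usage calls (0.287%) were made, and Rps27 had a log2 fold change of -0.67 (adjusted p 0.496 in edgeR). The median of the TOP translation genes was -0.012 with total counts, that of TOP and mTORC1 control 0.0022 in the same fit and 0.021 when scaled to the upper quartile, and that of the ribosomal proteins outside the symbol rule -0.24 to 0.15 when 1 library was left out (0.15 without Ag 5), all added after seeing the data.

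Of 486 values of 27 named genes under the alternatives, 394 kept their direction and side of the threshold, 23 newly passed it and 69 changed sign, in 19 genes. The cause was not tested. With DESeq2 the log2 fold changes that changed sign were Rplp2 -0.10, Rpl11 -0.090, Rpl3 -0.041, Rpl7 -0.056 and Rps4x -0.029, and with its size factors -0.11, -0.095, -0.047, -0.061 and -0.034. With library weights they were Rps6 0.23, Rpl36a 0.27 and Rpl39 0.39, and with the replicate block 0.019, 0.042 and 0.072. With total counts they were Rplp0 -0.033, Rplp2 -0.21, Rpl11 -0.19, Rpl3 -0.16, Rpl7 -0.17, Rpl22l1 -0.019 and Rps4x -0.13. With the upper quartile they were Rplp0 -0.041, Rplp2 -0.21, Rpl11 -0.19, Rpl3 -0.15, Rpl7 -0.16, Rpl22l1 -0.046, Rpl36al -0.015 and Rps4x -0.13. With no filter on low counts they were Rpl32 0.0068, Rplp1 0.069, Rps6 0.25, Rpsa 0.13, Rpl22 0.091, Rpl36a 0.24 and Rpl39 0.25. Without Ag 1 and Ag 4 they were Rpl6 -0.036, Rps27l -0.26, Rps19bp1 -0.084, Rplp0 -0.083, Rplp2 -0.17, Rpl11 -0.17, Rpl3 -0.063, Rpl7 -0.097, Rpl10 -0.11, Rpl22l1 -0.20, Rpl36al -0.14 and Rps4x -0.11. With 1 library left out the ranges were -0.11 to 0.23 for Rplp2, -0.10 to 0.25 for Rpl11, -0.064 to 0.26 for Rpl7, -0.0029 to 0.46 for Rpl22l1, -0.15 to 0.15 for Rps6, -0.18 to 0.18 for Rpl36a, -0.16 to 0.25 for Rpl39, -0.032 to 0.25 for Rpl3 and -0.046 to 0.31 for Rps4x. Depth cannot be read from these estimated counts.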
